A study of Drosophila melanogaster with 7 samples.

Results

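Notch pathway genes and genes of the Enhancer of split complex, E(spl), were read out on 18 features of 15 genes among the 10376 features of the arrays. A feature is 1 spotted cDNA clone. It was counted as a member if the platform annotation gave it exactly 1 gene symbol and that symbol began with E(spl) or was one of 25 symbols of the pathway. Of those 25 symbols 11 had a feature, as did 4 of the 11 E(spl) genes in the current gene table. The rule uses names and no measured value, but it was written with earlier results of these data known. Of the rule's genes, *Nak*, *Dap160*, *O-fut1*, *sca* and *bun* had been listed by the study from its arrays of another *lola* allele. The receptor gene *N*, the ligand genes *Dl* and *Ser*, the DNA-binding factor gene *Su(H)* and *sca* were not analysed here. The same holds for *H*, *mib1*, *kuz*, *nct*, *aph-1*, *pen-2*, *Brd* and *Bob*. A clone whose annotation names *dx* together with another gene was not analysed either.

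Notch is a cell surface receptor that is activated by ligands on neighbouring cells. Sugars added to its extracellular part tune the response, the ligand has to be internalized by the signalling cell, and proteases then release the intracellular part of the receptor, which enters the nucleus and works with Su(H) and Mastermind as a transcriptional activator. In the *Drosophila* embryo the E(spl) genes are the best known targets. Most encode basic helix-loop-helix (bHLH) repressors that recruit the corepressor Groucho and hold back the proneural genes, so that single cells of a cluster take the neural fate. Notch signalling also acts at later steps, in the division of neural precursors and in growing axons.

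The RNA came from whole embryos aged 10 to 12 hours. Mutant embryos were of genotype w1118 and homozygous for lolaORC4, with the sca-GAL4 driver on one copy of the second chromosome and UAS-tau-eGFP on the other. Control embryos were w1118 with the same driver and reporter, and without the *lola* allele. *lola* encodes a family of transcription factors made by alternative splicing, of which lolaORC4 inactivates isoform K. Mutant and control embryos thus shared the w1118 background, the GAL4 driver at *scabrous* (*sca*, itself a gene of Notch signalling) and the tau-eGFP reporter by which embryos were sorted on CNS fluorescence. Each RNA sample was from about 300 embryos, and mutant and control RNA of a pair collected together were labelled with different dyes and hybridized to 1 array. The 7 arrays are replicates 1 to 7, and the labels put the mutant RNA in Cy3 on replicates 1, 4 and 6 and in Cy5 on replicates 2, 3, 5 and 7. Both mutant chromosomes carry the same *lola* allele, so sequence differences linked to it and the mutation itself cannot be told apart. *lola* lies on arm 2R, as do the members *mam* and *O-fut1*, and the members *Nak*, *Dap160*, *numb* and *bun* lie on arm 2L of the same chromosome. The ratios hold no expression level, so whether a gene was expressed cannot be read from them.

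All values are log2 ratios of the pair, and their direction is not stated in the sources used here. They are given with the sign in which *spir*, named in the series title as suppressed by Lola, is positive (mean log2 ratios of 1.58 and 1.15 for its 2 clones, positive on 7 of 7 arrays). This would be mutant over control if *spir* RNA was higher in lolaORC4 embryos, but it is not settled. The values as deposited have the opposite sign, and if those are mutant over control every sign below reverses. Over the features, pairs of arrays had a Pearson r of 0.30 to 0.72 where the dye orientation was the same and of 0.06 to 0.63 where it was opposite. All were positive, but agreement was close to nil for the lowest pair, replicates 1 and 2. Array medians lay between -0.018 and 0.010. The 4 *lola* clones had means from -0.44 to 0.46, and since the exons they carry are not given here, they do not check the labels. Replicate 2 stood apart most often: it held the value farthest from the median of the 7 arrays for 23.5% of all features and for 27.8% of the members.

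Of the 18 members, 2 passed an adjusted p of 0.05 over all features (*limma*, mean over 7 arrays against 0), 1 in each direction, and 16 did not. The positive feature was a clone of *Nak*, and the negative one was the clone of *E(spl)m5-HLH*. That is 11.1% of the members, beside 7.64% of all features (3.18% positive and 4.46% negative). An unadjusted p under 0.05 was reached by 4 members, or 22.2% of them, beside 21.9% of all features, and 3 members had the same sign on all 7 arrays, beside 11.6% of all features. The median of the members' mean log2 ratios was 0.018, beside 0.0067 for all features, and the median size without sign was 0.040, beside 0.061. Of the 3 members with 1 sign throughout, 2 are clones of *Nak*. None of these measures was tested against the array as a whole, and nothing is read from the differences. No member reached a mean of 0.2 in either direction.

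**Figure D1:**
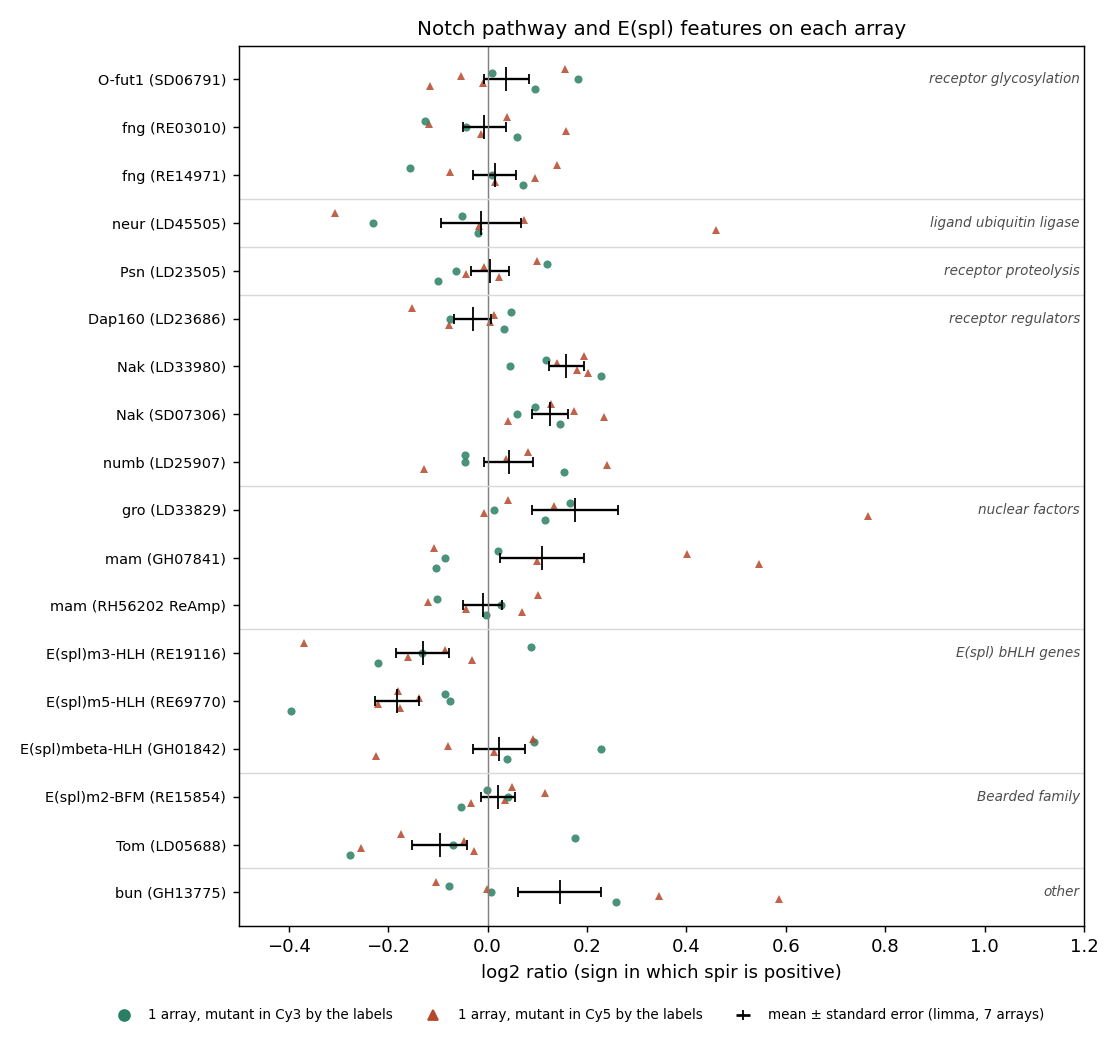
Log2 ratio of each of the 18 member features (rows, grouped by role) on each of 7 arrays; circles are arrays with the mutant in Cy3 and triangles arrays with the mutant in Cy5 by the labels, and the black bars are the mean ± standard error from *limma*. Only the 2 *Nak* clones lie right of 0 on all 7 arrays and only E(spl)m5-HLH lies left of it on all 7, while *gro* has 1 array at 0.76 and the others between -0.0063 and 0.17.

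The receptor's sugars were covered by 3 features, none of which passed. *O-fut1* encodes the O-fucosyltransferase that puts fucose on the EGF repeats of Notch. Its clone had log2 ratios from -0.12 to 0.18 over the 7 arrays, with a mean of 0.038 (95% confidence interval -0.063 to 0.14, adjusted p = 0.689 from *limma*), and was positive on 4 arrays. *fng* encodes Fringe, the glycosyltransferase that extends this fucose and thereby shifts the receptor's choice of ligand. Its clones RE03010 and RE14971 had means of -0.0065 and 0.014, with intervals of -0.10 to 0.090 and of -0.082 to 0.11. The 2 clones ran alike from array to array, lowest on replicates 5 and 6 and positive on replicates 1, 3 and 7, and differed by 0.021 ± 0.054 on average (SD, n = 7 arrays, exact sign-flip test, two-sided p = 0.344). The spread of *fng* between arrays was therefore shared by both clones.

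The signalling cell's side and the cleavage of the receptor were each covered by 1 feature. *neur* encodes Neuralized, the ubiquitin ligase that marks the ligand for internalization. Its log2 ratios on replicates 1 to 7 were -0.019, 0.46, -0.018, -0.23, 0.073, -0.051 and -0.31. Replicate 2 was far above the others and replicate 7 was the lowest, so that the mean of -0.013 (interval -0.19 to 0.17) was poorly fixed; without replicate 2 it was -0.092. *Psn* encodes Presenilin, the catalytic subunit of the gamma-secretase that cuts Notch in the membrane. Its ratios lay between -0.099 and 0.12, with a mean of 0.0045 (interval -0.082 to 0.092), among the smallest of all features.

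Among the genes that regulate the receptor, *Nak* was set apart from the others by its sign on every array. *Nak* encodes the Numb-associated kinase, which binds Numb and takes part in clathrin-mediated endocytosis. Clone LD33980 had log2 ratios of 0.23, 0.20, 0.18, 0.044, 0.14, 0.12 and 0.19 on replicates 1 to 7. All were positive, with replicate 4 the lowest, and the mean was 0.16 (1.12-fold, standard error 0.035, adjusted p = 0.0259 from *limma*). The other clone, SD07306, had 0.15, 0.042, 0.24, 0.060, 0.17, 0.095 and 0.13. It was also positive on all 7 arrays, with a mean of 0.13 (1.09-fold, standard error 0.036), but missed the threshold (adjusted p = 0.0681 from *limma*). The clones differed by 0.032 ± 0.076 (SD, n = 7 arrays, exact sign-flip test, two-sided p = 0.328). The mean difference was below the SD of either clone over the arrays (0.063 and 0.067), but the SD of the difference was not. From array to array the 2 *Nak* clones had a Pearson r of 0.31, beside 0.86 for the clones of *fng* and -0.17 for those of *mam*. Averaged into 1 value for the gene before the fit, they gave 0.14, with an adjusted p of 0.0323 (*limma*). In the arrays with the mutant in Cy3, LD33980 had 0.13 ± 0.092 (SD, n = 3), and in those with the mutant in Cy5 0.18 ± 0.028 (SD, n = 4), with the same sign in both. The call rested on nearly all arrays: it was kept without replicate 4 and without replicate 6, and lost without replicate 1, 2, 3, 5 or 7, with values of 0.15 to 0.16 and adjusted p up to 0.0792 (*limma*).

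The other 2 regulators of the receptor, *numb* and *Dap160*, did not pass. *numb* encodes the protein that antagonizes Notch in one daughter of an asymmetric division. Its clone lay between -0.13 and 0.24, with a mean of 0.042 (interval -0.067 to 0.15), and was positive on 4 arrays. *Dap160* encodes the fly intersectin, a scaffold of endocytosis. Its values lay between -0.15 and 0.047, and its mean of -0.030 had an interval of -0.11 to 0.054.

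**Figure D2:**
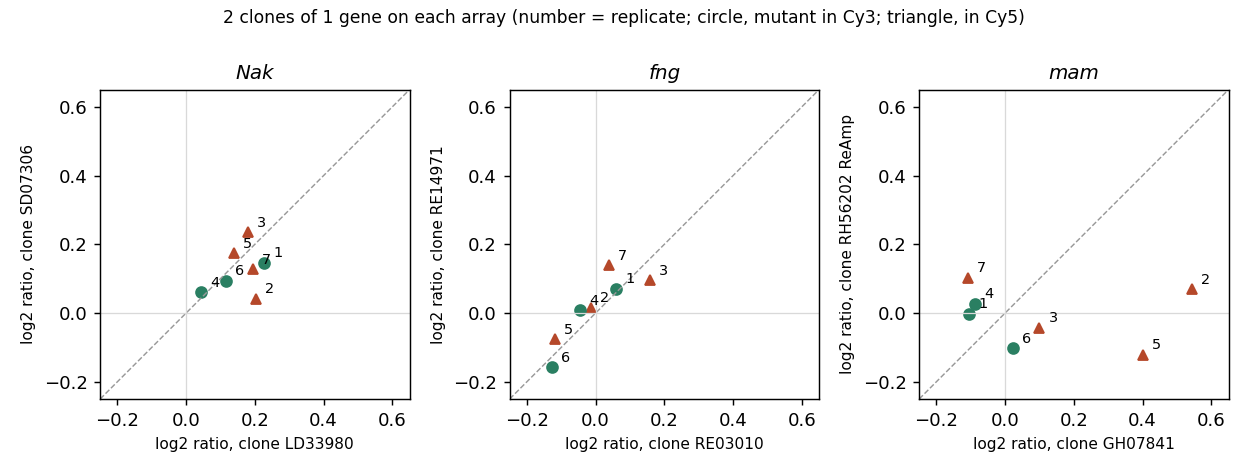
Log2 ratios of the 2 clones of *Nak*, *fng* and *mam* against each other on each of 7 arrays (the number is the replicate; circles, mutant in Cy3, and triangles, mutant in Cy5; the dashed line marks equal values). Both *Nak* clones are positive throughout, the *fng* clones follow the line through 0, and the *mam* clone GH07841 reaches 0.55 on replicate 2 and 0.40 on replicate 5 where the other clone does not.

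The nuclear factors were represented by *mam* and *gro*. *mam* encodes Mastermind, the coactivator of the Notch and Su(H) complex. Its clone GH07841 had log2 ratios of -0.10, 0.55, 0.10, -0.086, 0.40, 0.022 and -0.11 on replicates 1 to 7. It was high on replicates 2 and 5 and near 0 or below on replicates 1, 4, 6 and 7, and its mean of 0.11, or 0.037 without replicate 2, did not pass (adjusted p = 0.515 from *limma* with all arrays). The second *mam* clone, RH56202_ReAmp, had -0.12 on replicate 5 and 0.069 on replicate 2, with a mean of -0.0097 (interval -0.097 to 0.078). The difference between the *mam* clones was 0.12 ± 0.29 (SD, n = 7 arrays, exact sign-flip test, two-sided p = 0.328), and over the 3 genes with 2 clones no pair passed the threshold (Benjamini-Hochberg adjusted exact p = 0.344 for each).

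*gro* encodes Groucho, the corepressor that the E(spl) bHLH proteins bring to DNA, and its gene lies at the end of the E(spl) complex. Its log2 ratios were 0.12, 0.76, -0.0063, 0.013, 0.13, 0.17 and 0.042 on replicates 1 to 7. A single array, replicate 2, thus lay far above the other 6. The mean was 0.18 with an interval of -0.019 to 0.37 (adjusted p = 0.280 from *limma*), and 0.077 without replicate 2.

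Counted as symbols that begin with E(spl), plus *gro*, the E(spl) complex on arm 3R holds 12 genes in the gene table. Of these 5 had a feature. In their order along the arm these were *E(spl)mbeta-HLH*, *E(spl)m2-BFM*, *E(spl)m3-HLH*, *E(spl)m5-HLH* and *gro*. Those named HLH encode the bHLH repressors. Clone RE69770 of *E(spl)m5-HLH* had -0.40, -0.18, -0.22, -0.075, -0.14, -0.086 and -0.18 on replicates 1 to 7. All 7 arrays were negative, replicate 1 the most, and the mean was -0.18 (1.13-fold, standard error 0.044, adjusted p = 0.0372 from *limma*). It was -0.19 ± 0.18 (SD, n = 3) with the mutant in Cy3 and -0.18 ± 0.034 (SD, n = 4) with the mutant in Cy5. The call was lost without any single array, replicate 1, 2, 3, 4, 5, 6 or 7 (means of -0.20 to -0.15, adjusted p from 0.0529 to 0.106, *limma*), and also under quantile normalization (adjusted p = 0.0545 from *limma*).

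The other bHLH genes of the complex did not pass. Clone RE19116 of *E(spl)m3-HLH*, the neighbour with a feature, had -0.22, -0.032, -0.16, -0.13, -0.087, 0.087 and -0.37. It was negative on 6 of 7 arrays and positive on replicate 6, with a mean of -0.13 (standard error 0.053, adjusted p = 0.185 from *limma*). Clone GH01842 of *E(spl)mbeta-HLH* had 0.040, -0.22, 0.013, 0.23, -0.079, 0.093 and 0.092. Its arrays lay on both sides of 0, and the mean was 0.023 (interval -0.095 to 0.14, adjusted p = 0.855 from *limma*). With the mutant in Cy3 it was 0.12 ± 0.097 (SD, n = 3), and with the mutant in Cy5 -0.050 ± 0.14 (SD, n = 4).

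The Bearded family, small proteins that bind Neuralized and inhibit it, was represented by *E(spl)m2-BFM* from the complex and by *Tom* from the Bearded complex on arm 3L. *E(spl)m2-BFM* had -0.053, -0.032, 0.035, 0.041, 0.12, -0.0013 and 0.049 on replicates 1 to 7. No array moved far from 0, the spread was among the narrowest of all features (SD 0.056), and the mean of 0.022 had an interval of -0.055 to 0.099. *Tom* had -0.28, -0.028, -0.25, -0.069, -0.048, 0.18 and -0.17. It was negative on 6 of 7 arrays, positive only on replicate 6, and its mean of -0.096 did not pass (interval -0.22 to 0.029, adjusted p = 0.366 from *limma*).

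Within the complex the 4 E(spl) features were compared in all 6 pairs, array by array. *E(spl)m5-HLH* was below *E(spl)m2-BFM* on 7 of 7 arrays, by 0.20 on average (differences of *E(spl)m5-HLH* minus *E(spl)m2-BFM* from -0.34 to -0.084, exact sign-flip test, two-sided p = 0.0156, the smallest that 7 arrays allow). It was below *E(spl)mbeta-HLH* on 6 of 7 (mean difference -0.20, exact p = 0.0312). After Benjamini-Hochberg adjustment of the exact p-values over the 6 pairs both had p = 0.0936, and no pair of the complex passed the threshold. With 7 arrays and 6 pairs, 1 pair at the smallest exact p cannot pass this adjustment unless other pairs are low too. The adjusted values therefore do not decide whether *E(spl)m5-HLH* and *E(spl)m2-BFM* differ. *E(spl)m3-HLH* and *E(spl)m5-HLH* differed by 0.051 ± 0.13 (SD, n = 7 arrays, exact p = 0.359), and *E(spl)mbeta-HLH* and *E(spl)m2-BFM* by 0.0013 ± 0.15 (SD, n = 7 arrays, exact p = 1).

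**Figure D3:**
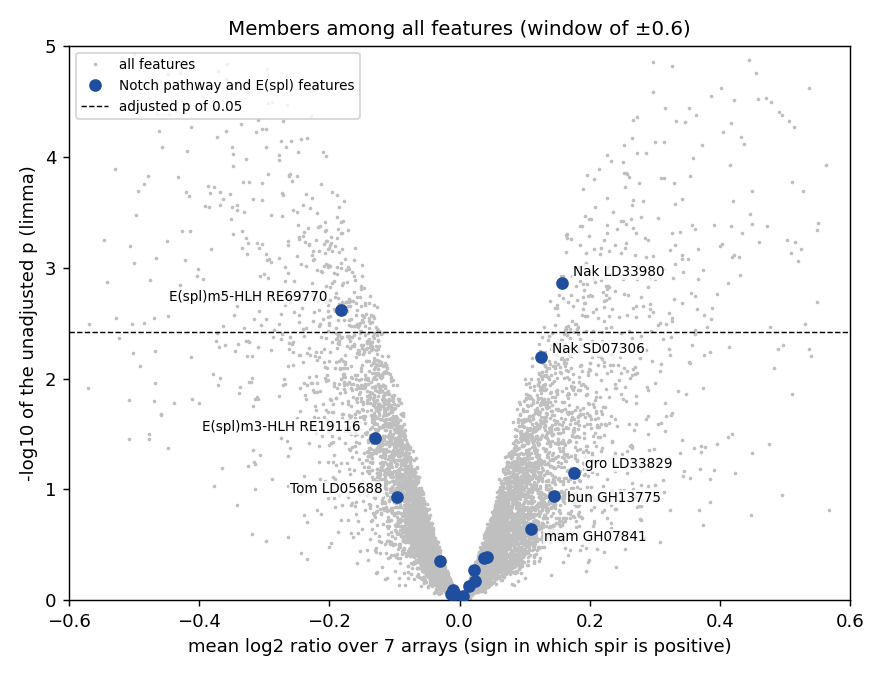
Mean log2 ratio over 7 arrays (horizontal) against -log10 of the unadjusted p from *limma* (vertical) for all features in the plotted window (grey) and the 18 members (blue); the dashed line marks an adjusted p of 0.05. The *Nak* clone LD33980 and *E(spl)m5-HLH* lie above the line, *Nak* SD07306 just below it, and most members lie near 0 among the bulk of the features.

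The remaining member, *bun*, encodes a leucine zipper protein of the TSC22 family. Its clone had 0.26, 0.59, 0.34, 0.0071, -0.0013, -0.077 and -0.10 on replicates 1 to 7. Replicates 1, 2 and 3 were positive and the other 4 near 0 or negative, and the mean of 0.15 did not pass (interval -0.043 to 0.33, adjusted p = 0.365 from *limma*). Without replicate 2 it was 0.071.

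Other genes of the pathway outside the rule were taken from a list of 25, of which 14 had features, 21 in all. Of these 21 features 1 was positive, none was negative and 20 did not pass (*limma*), while 3 had an unadjusted p under 0.05. These shares, 4.76% and 14.3%, were below the 7.64% and 21.9% of all features. The one that passed was that of *Nedd4*, a ubiquitin ligase that promotes the removal of Notch from the cell surface. It had 0.17, 0.15, 0.23, 0.055, 0.22, 0.13 and 0.16 on replicates 1 to 7, positive throughout, with a mean of 0.16 (standard error 0.035, adjusted p = 0.0236 from *limma*). It did not pass without replicate 1, 3, 5 or 7 (means of 0.15 to 0.18 over all leave-outs, adjusted p up to 0.0789 from *limma*). The median of the 21 means was 0.095, and 0.042 without replicate 2. On replicate 2 several of the list's features were far above their other arrays: the 4 clones of *spen*, which encodes a large nuclear cofactor, had 0.39, 1.34, 1.48 and 1.68 there, and the 2 clones of the corepressor gene *CtBP* had 0.62 and 1.16. In all 14 of the 21 features, or 66.7%, had their highest value on replicate 2, against 22.6% of all features and 22.2% of the members (*gro*, *mam* GH07841, *neur* and *bun*). The part of replicate 2 in these values was not tested further.

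Relatives of the E(spl) repressors, and proneural and related genes, were followed as well. Of the 5 listed HES relatives 2 had a feature. *cwo*, a bHLH repressor gene of the circadian clock, was positive on 7 of 7 arrays with a mean of 0.29 (standard error 0.057, adjusted p = 0.0147 from *limma*), and *dpn*, a neuroblast gene, had 0.12 and did not pass (adjusted p = 0.160 from *limma*). The 6 features of 5 proneural or related genes (*l(1)sc*, *ase*, *da*, *emc* and *tap*) lay between -0.034 and 0.13, and none passed (*limma*). Of these 1 had an unadjusted p under 0.05, that of *tap* (*limma*).

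Marker genes of the cell types in a whole embryo were read beside these values, since in whole-embryo RNA fewer cells of a type and less RNA per cell cannot be told apart. Of 4 neuroblast features *pros* was positive (0.23, adjusted p = 0.0209 from *limma*, up to 0.0658 without replicate 3 or 5, where it did not pass) and 3 did not pass (list median 0.13, array medians from -0.0059 to 0.20). Of 2 neuronal features that of the synaptic vesicle gene *nSyb* was negative (-0.39, adjusted p = 0.00714 from *limma*), and *futsch* had 0.068 (array medians of the pair from -0.33 to 0.054). None of 4 glial or 4 muscle features passed, with list medians of 0.073 and -0.13 (array medians from -0.049 to 0.19 and from -0.60 to 0.73). Both *Pxn* clones were positive among 8 hemocyte features (0.39 and 0.21; list median 0.067, array medians from -0.067 to 0.20), and *serp* was negative among 3 features of trachea and epidermis (-1.19; list median -0.030, array medians from -0.25 to 0.13). The part of cell type shares in the values of *Nak* and *E(spl)m5-HLH* was not tested. The 4 muscle features were all highest on replicate 1 (array median 0.73, and between -0.60 and 0.035 on the others). *E(spl)m5-HLH* was lowest on that array, and without it had a mean of -0.15 and did not pass (adjusted p = 0.0639 from *limma*). That loss is not particular to replicate 1, since the call was lost without any single array. A link between the muscle features and *E(spl)m5-HLH* was not tested.

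**Figure D4:**
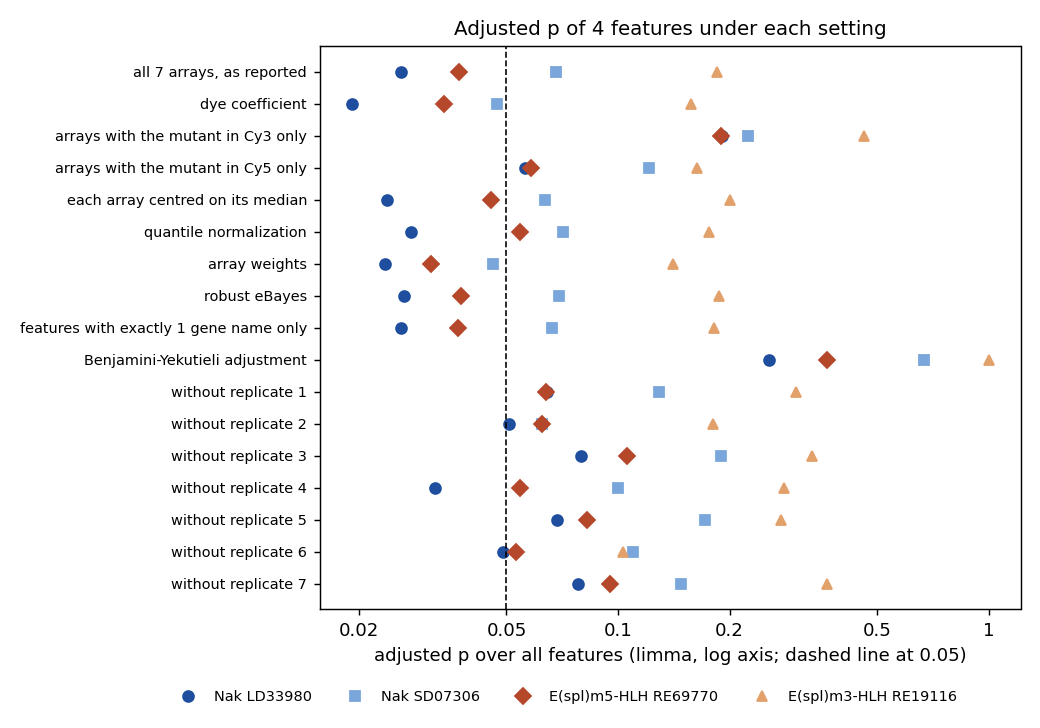
Adjusted p over all features (*limma*, log axis) of 4 member features as reported and under each alternative setting (rows); the dashed line marks 0.05. *Nak* LD33980 and *E(spl)m5-HLH* sit left of the line with all 7 arrays and move to or past it when most single arrays are left out; the other 2 features stay near or right of it.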

How the data were processed

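RNA of lolaORC4 and control embryos was compared on 7 two-colour arrays of spotted cDNA clones. The authors extracted spot intensities with GenePix, left the background uncorrected, used *limma* for print-tip loess within each array and scale normalization between them, and deposited the resulting log2 ratios, 1 column an array; the direction of the ratio and the *limma* version are not given in the sources used here. Leaving background in can shrink ratios of dim spots, and no spot intensity was used here.

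All ratios were multiplied by -1, the sign in which *spir* is positive. The mean of each feature over the 7 arrays was tested against 0 with *limma* 3.58.1 in R 4.3.3 (lmFit and eBayes), and p-values were adjusted by Benjamini-Hochberg across the 10376 features. The pairing of mutant and control is contained in the ratio. By the labels 3 arrays have the mutant in Cy3 and 4 have it in Cy5, the reverse of the count in the methods. Differences between features used an exact sign-flip test over arrays. Confidence intervals are those of the *limma* fit. The number of arrays limits the precision. The *limma* p-values set each mean against the spread between these sample pairs, moderated over all features.

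Gene names are those of the platform annotation (8598 features with 1 gene, 517 with several, 1261 with none); 8454 of the single names were found in a gene table of Release 6, from which only names, chromosome arms and gene order were taken. No clone, promoter or protein sequence was analysed here. Values on every array are given for members that passed, members with 1 sign on all 7 arrays and every E(spl) feature, and for others where a single array set the mean. The members and lists were chosen with earlier results of these data known. Alternatives were a dye coefficient, each dye orientation alone, centring, quantile normalization, array weights, robust empirical Bayes, features with 1 gene only, averaging by gene, another adjustment, a threshold of 0.01 and leaving out each array.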

Additional observations from a re-analysis of the deposited data

Results flagged for a closer look

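A value was looked at again when the highest or lowest of the 7 arrays stood apart from the nearest other by a share of the whole range above Dixon's 95% critical value for 7 values. The 18 members and all features of the pathway, HES, proneural and cell type lists were examined, 70 in all. Of these 11 met the criterion, of which 1 was a member. The nominal share for 7 values from a normal distribution is about 1 in 20. The share over all features was not computed, and repeat clones of *spen* and *CtBP* are among the 11. Nothing is therefore read from the count. The member was *gro* clone LD33829, at 0.76 on replicate 2 against at most 0.17 elsewhere (gap 0.777 of the range). On the same array stood *spen* LD03167 (1.68, gap 0.772), *spen* LD15253 (1.48, gap 0.630), *spen* SD03119 (1.34, gap 0.584), *CtBP* GH20987 (1.16, gap 0.765), *CtBP* LD08439 (0.62, gap 0.622), *shi* LD21622 (0.59, gap 0.572) and *pros* HL08040 (0.49, gap 0.625). On replicate 3 stood *lqf* GH27912 (0.23, gap 0.730) and *Tace* RE35570 (0.36, gap 0.671), and on replicate 1 the muscle feature *Tm2* RE15528 (0.91, gap 0.707). Without replicate 2 the means were 0.077 for *gro*, from 0.045 to 0.11 for these 3 *spen* clones, 0.067 and 0.013 for *CtBP*, 0.088 for *shi* and 0.18 for *pros*. Of the 8 features that stood apart on replicate 2, only *pros* had passed the test over 7 arrays (*limma*).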

How the results depend on the processing

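The number of members that passed was 2 with all 7 arrays. It was 3 with a dye coefficient and with array weights, where *Nak* SD07306 passed too (adjusted p = 0.0470 and 0.0460, *limma*), and 2 with median centring, robust empirical Bayes, features of 1 gene only and averaging by gene. It was 1 with quantile normalization (*Nak*), and 0 in the arrays of either dye orientation alone, with Benjamini-Yekutieli adjustment and at a threshold of 0.01. Leaving out single arrays gave 0 to 1. Calls over all features moved as well, to 1234 with a dye coefficient and 441 without replicate 5, from 793. *Nak* and *E(spl)m5-HLH* kept their sign in every setting run. Other members reversed their sign, most of them with means near 0, and *mam* GH07841 with a mean of 0.11. With the mutant in Cy5 alone these were *O-fut1* (-0.0055), *fng* RE03010 (0.016), *neur* (0.052), *mam* RH56202_ReAmp (0.0021) and *E(spl)mbeta-HLH* (-0.050). With the mutant in Cy3 alone they were *fng* RE14971 (-0.026), *Psn* (-0.014), *Dap160* (0.0014), *mam* GH07841 (-0.056) and *E(spl)m2-BFM* (-0.0044). Averaged by gene, *fng* was at 0.0038 and *mam* at 0.050. Leaving out single arrays also turned signs, in ranges of -0.034 to 0.014 (*fng* RE03010), -0.0068 to 0.043 (*fng* RE14971), -0.092 to 0.036 (*neur*), -0.015 to 0.022 (*Psn*), -0.028 to 0.0087 (*mam* RH56202_ReAmp) and -0.011 to 0.065 (*E(spl)mbeta-HLH*). The cause was not tested. The median of the other pathway genes without replicate 2 was added after seeing the data. The pairing is contained in each ratio, so the test of the mean against 0 already uses it. No separate group shares the replicate numbers, and no further pairing was made. Signal over background was not available for the spots used here, so dim features could not be set apart.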
